A study of Mus musculus with 8 samples.

Results

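The transcripts described here are those of glycolysis and of the cellular response to low oxygen, in B-1a cells of the mouse peritoneal cavity. They were chosen by name: glucose transporters, glycolytic enzymes and their regulators, lactate and pyruvate enzymes, the hypoxia-inducible factor (HIF) subunits, the enzymes that control HIF, and hypoxia-inducible genes. Of 41 genes in the list, 36 had a probe set that the platform annotation pairs with that symbol alone, and these were measured among 22180 named genes. Aldoa, Bnip3l and Ankrd37 lay only on probe sets with several symbols, and Gpi1 and Eno1 were not analysed here.

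B-1a cells are innate-like B cells that live in body cavities and renew themselves. The KO mice were PTIPflox/flox and the controls PTIP+/+, all 5 weeks old. Both groups carried a single copy of a Cre allele that directs deletion to the B lineage, so the controls express Cre as well. The labels state that 29 KO and 22 control animals made up 4 biological replicate pools per genotype, and each pool has 1 Affymetrix array. The number of animals in each pool, their sex and the sort gates were not given in these sources. All values are log2 signals after the authors' normalization, differences are KO minus control, and called means an adjusted p under 0.05 in limma over all named genes. In that fit 3398 of all 22180 genes had an unadjusted p under 0.05, the background for every such count below.

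Glycolysis turns glucose into pyruvate, which cells either reduce to lactate or pass to the mitochondria. When oxygen is short, the prolyl hydroxylases no longer mark HIF alpha subunits for destruction by the VHL ubiquitin ligase, and the stabilised factor raises transcription of many glycolytic genes and of Pdk1, Vegfa, Egln1 and other targets. Lymphocytes also raise glycolysis on activation, and B-1a cells have been described as active users of glucose. PTIP, the product of Paxip1, belongs to histone methyltransferase complexes that mark active genes.

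The targeted gene served as a check of the labels. Paxip1 was at 4.66, 4.48, 4.79 and 3.58 in KO pools 1 to 4 and at 6.87, 7.13, 7.16 and 7.03 in control pools 1 to 4. It fell by 2.67 (SE 0.22, limma adjusted p = 9.96e-05). The position of its probes relative to the floxed exons was not known here. Array correlations across genes, which are not independent replicates, were at least 0.990 within KO and 0.992 within control. The p-values measure the spread between these pools. In bulk samples, fewer cells of a type and less RNA per cell cannot be told apart.

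The pools differed in markers of other cells. The 5 measured B cell markers averaged between 10.2 and 10.4 in every pool, and none was called (limma, 0 at an unadjusted p under 0.05). Of 8 B-1a markers, Cd36 was called higher (1.66) and Itgam (-1.68), Zbtb32 (-1.11) and Cd9 (-0.60) lower. Spn (-0.52) and Ctla4 (0.55) were not called but did not overlap either. In all, 6 of the 8 had no overlap, against 10.5% of all genes. Cd5, the marker that defines the subset, averaged 7.48 in KO and 7.44 in control, which does not show that the cells were otherwise alike. T cell markers, averaged over 12 genes, stood at 6.74, 6.48, 4.68 and 5.19 in KO pools 1 to 4 and at 4.83, 5.05, 4.28 and 4.08 in control pools 1 to 4. All 12 were higher on average in KO; 0 were called and 10 had an unadjusted p under 0.05. The mean of 10 NK cell markers ran from 4.52 to 5.82 in KO and from 3.69 to 4.61 in control, with Klrb1c and Klrd1 called higher. Macrophage markers ran from 4.86 to 5.20 in KO and from 4.87 to 5.56 in control, with 1 of 12, Cd68, called lower. Because T cell markers moved with genotype, fits that adjust for their mean (the T cell marker covariate) or leave out KO pools 1 and 2 stand beside the called genes. Over all genes these fits called 279 and 320 genes, against 797 in the main fit. A call lost in them therefore does not by itself mean a smaller difference.

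Of the 36 measured genes, 5 were called higher in KO (Ndrg1, Pdk1, Egln1, Pfkp and P4ha1), 2 were called lower (Vegfa and Pfkfb3) and 29 were not called. Among all 22180 genes, 3.59% were called, 1.49% higher and 2.1% lower, against 19.4% of the measured genes here. The 4 KO and 4 control values did not overlap for 8 genes that were higher and 3 that were lower in KO, where the background was 10.5% of all genes, 5.41% higher and 5.09% lower. The median difference was 0.08, against 0.02 over all genes, with 22 differences above 0 and 14 below. These shares describe a list assembled with results of these data known. The plot of differences by role shows where the called genes fall.

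**Figure D1:**
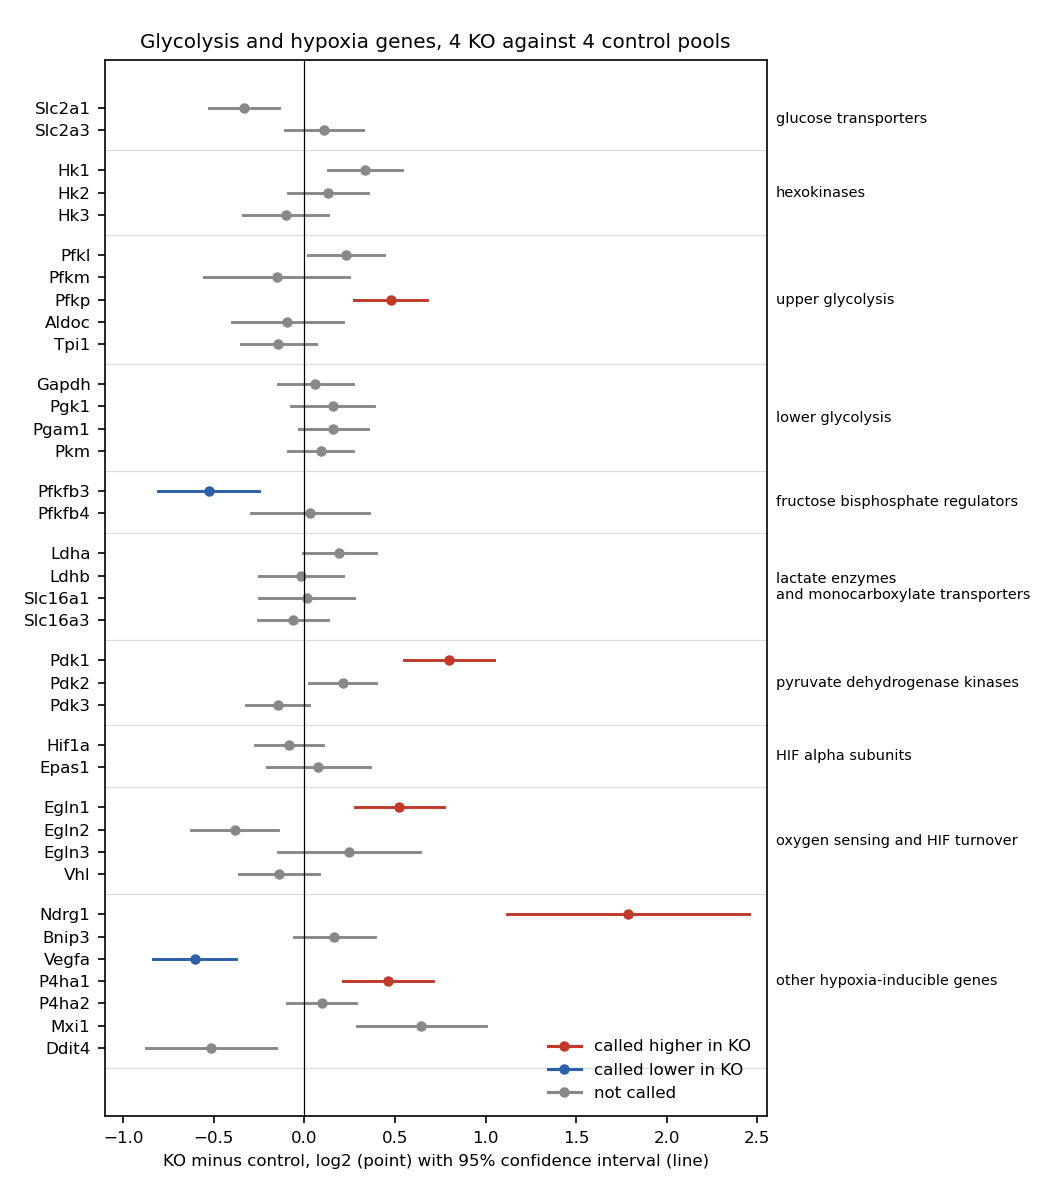
Difference between KO and control on the log2 scale (horizontal axis) for each of the 36 measured genes, grouped by role, with 95% confidence intervals of the limma fit as bars; colour marks called genes. Ndrg1 at 1.79 and Pdk1 at 0.80 lie farthest above 0 among called genes, Vegfa at -0.60 and Pfkfb3 at -0.53 farthest below, and the 4 lower glycolysis enzymes sit between 0.06 and 0.16.

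Promoter sequence was examined because several of these genes are textbook HIF targets. HIF binds the letters ACGTG or GCGTG, and both were searched on both strands in RefSeq windows of GRCm38.p6 that run from 250 bases before to 50 after a transcript start. Of 33 measured genes with a window, 31 (93.9%) held a match in at least 1 window, against 46.7% of 27025 genes, and 43.8% of 32851 windows held one. All 6 called genes with a window and 25 of 27 that were not called held a match, so its presence did not separate them. Ndrg1, Slc2a3 and Epas1 were not searched. Both motifs contain CpG, neither base composition nor the number of windows per gene was matched, and a match is not a binding site.

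The 250 bases before the start of the most upstream window are given for Pdk1 (chr2:71872974-71873223, plus strand), Egln1 (chr8:124949255-124949504, minus strand), P4ha1 (chr10:59323046-59323295, plus strand), Pfkfb3 (chr2:11553930-11554179, minus strand), Vegfa (chr17:46032378-46032627, minus strand) and Pgk1 (chrX:106186850-106187099, plus strand). They show stretches with and without the motif among called genes, and 1 gene that was not called. These genes, other than Pdk1, were chosen after their values were seen. Sequences run 5′ to 3′ on the strand of the gene, and capitals mark a match, with CACGT and CACGC the reverse complements.
Pdk1: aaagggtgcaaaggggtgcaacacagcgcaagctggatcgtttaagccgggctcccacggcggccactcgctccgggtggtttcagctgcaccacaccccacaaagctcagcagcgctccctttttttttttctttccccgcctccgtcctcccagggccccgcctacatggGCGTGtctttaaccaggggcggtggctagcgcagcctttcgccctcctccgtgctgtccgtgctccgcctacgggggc
Egln1: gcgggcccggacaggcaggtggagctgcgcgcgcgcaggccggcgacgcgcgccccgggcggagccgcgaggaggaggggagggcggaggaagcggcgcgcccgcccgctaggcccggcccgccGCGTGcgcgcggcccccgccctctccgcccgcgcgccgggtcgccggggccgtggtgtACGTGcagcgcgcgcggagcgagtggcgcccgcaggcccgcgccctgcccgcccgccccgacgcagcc
P4ha1: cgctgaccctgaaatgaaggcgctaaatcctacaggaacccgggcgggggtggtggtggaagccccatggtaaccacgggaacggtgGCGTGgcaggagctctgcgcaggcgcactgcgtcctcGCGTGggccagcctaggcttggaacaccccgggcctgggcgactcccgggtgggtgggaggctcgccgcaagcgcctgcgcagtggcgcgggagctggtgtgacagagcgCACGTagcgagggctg
Pfkfb3: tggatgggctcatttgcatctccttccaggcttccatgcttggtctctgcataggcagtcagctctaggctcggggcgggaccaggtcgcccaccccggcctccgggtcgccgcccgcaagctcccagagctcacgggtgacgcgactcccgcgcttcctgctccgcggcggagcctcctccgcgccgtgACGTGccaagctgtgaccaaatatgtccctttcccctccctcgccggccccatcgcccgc
Vegfa: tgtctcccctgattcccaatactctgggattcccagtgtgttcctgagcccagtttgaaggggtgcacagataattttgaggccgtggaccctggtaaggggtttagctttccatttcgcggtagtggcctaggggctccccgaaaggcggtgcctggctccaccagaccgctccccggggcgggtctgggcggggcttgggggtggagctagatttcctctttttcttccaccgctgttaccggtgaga
Pgk1: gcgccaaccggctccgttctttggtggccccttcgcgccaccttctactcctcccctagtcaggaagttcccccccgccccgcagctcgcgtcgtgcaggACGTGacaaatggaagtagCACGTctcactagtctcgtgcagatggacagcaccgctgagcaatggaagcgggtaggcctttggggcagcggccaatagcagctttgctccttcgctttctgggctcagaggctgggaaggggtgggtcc
Pdk1 holds 1 GCGTG, Egln1 1 of each motif, P4ha1 2 GCGTG and 1 ACGTG, Pfkfb3 1 ACGTG and Pgk1 2 ACGTG. Vegfa holds 0 in this stretch and has 2 matches in another window, and Pfkfb3 has 4 in another window. A further GCGTG of Pdk1 begins at -2 from the transcript start, so it runs past the end of the stretch and is not marked.

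Ndrg1 encodes a cytoplasmic protein induced by hypoxia, differentiation and stress. It was at 7.64, 7.78, 8.62 and 8.42 in KO pools 1 to 4 and at 6.22, 5.71, 6.16 and 7.23 in control pools 1 to 4. Every KO pool lay above every control pool, with control pool 4 the nearest to them. Means were 8.11 ± 0.47 in KO and 6.33 ± 0.64 in control (SD, n = 4 pools each), a difference of 1.79 (SE 0.30, 95% interval 1.12 to 2.45, 3.45-fold, limma adjusted p = 0.00823). An exact two-sided permutation test over 70 assignments gave p = 0.0286, the smallest this design allows. Every gene without overlap has this p, as 10.5% of all genes do, so it only restates the separation. A second Ndrg1 probe set gave 1.46 (SE 0.31) with no overlap, and was not called with every probe set tested (adjusted p = 0.0671). KO pools 3 and 4, with the lower T cell marker means of the KO group, had the highest Ndrg1. The difference was 2.50 with the T cell marker covariate (adjusted p = 0.00154) and 2.19 without KO pools 1 and 2 (adjusted p = 0.0191). Its paralogs did not pass: Ndrg2, Ndrg3 and Ndrg4 differed by 0.10, 0.04 and 0.19.

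Pyruvate dehydrogenase kinases switch off the pyruvate dehydrogenase complex and so hold pyruvate back from the mitochondria. Pdk1 was at 7.68, 7.49, 7.36 and 7.45 in KO pools 1 to 4 and at 6.91, 6.43, 6.71 and 6.74 in control pools 1 to 4, with no overlap. It rose by 0.80 (SE 0.11, 95% interval 0.55 to 1.05, 1.74-fold, limma adjusted p = 0.00287). The exact permutation p was 0.0286, which the lack of overlap fixes. Its second probe set gave 0.43 (SE 0.11; adjusted p = 0.126 with every probe set tested), and there too the lowest KO pool, at 6.06, was above the highest control pool, at 6.03. With the T cell marker covariate the rise was 0.72 and the call was lost (adjusted p = 0.0579); without KO pools 1 and 2 it was 0.71 (adjusted p = 0.0479). Pdk2, a second isoform, was at 6.05, 6.17, 6.11 and 6.07 in KO and at 6.02, 5.77, 5.83 and 5.94 in control, a difference of 0.21 (SE 0.08) that was not called (adjusted p = 0.247). Pdk3 was at 6.50, 6.65, 6.42 and 6.53 in KO and at 6.68, 6.72, 6.64 and 6.64 in control, a difference of -0.15 (adjusted p = 0.426). The family therefore held 1 called gene of 3, and the groups separated narrowly for Pdk2 and overlapped for Pdk3.

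**Figure D2:**
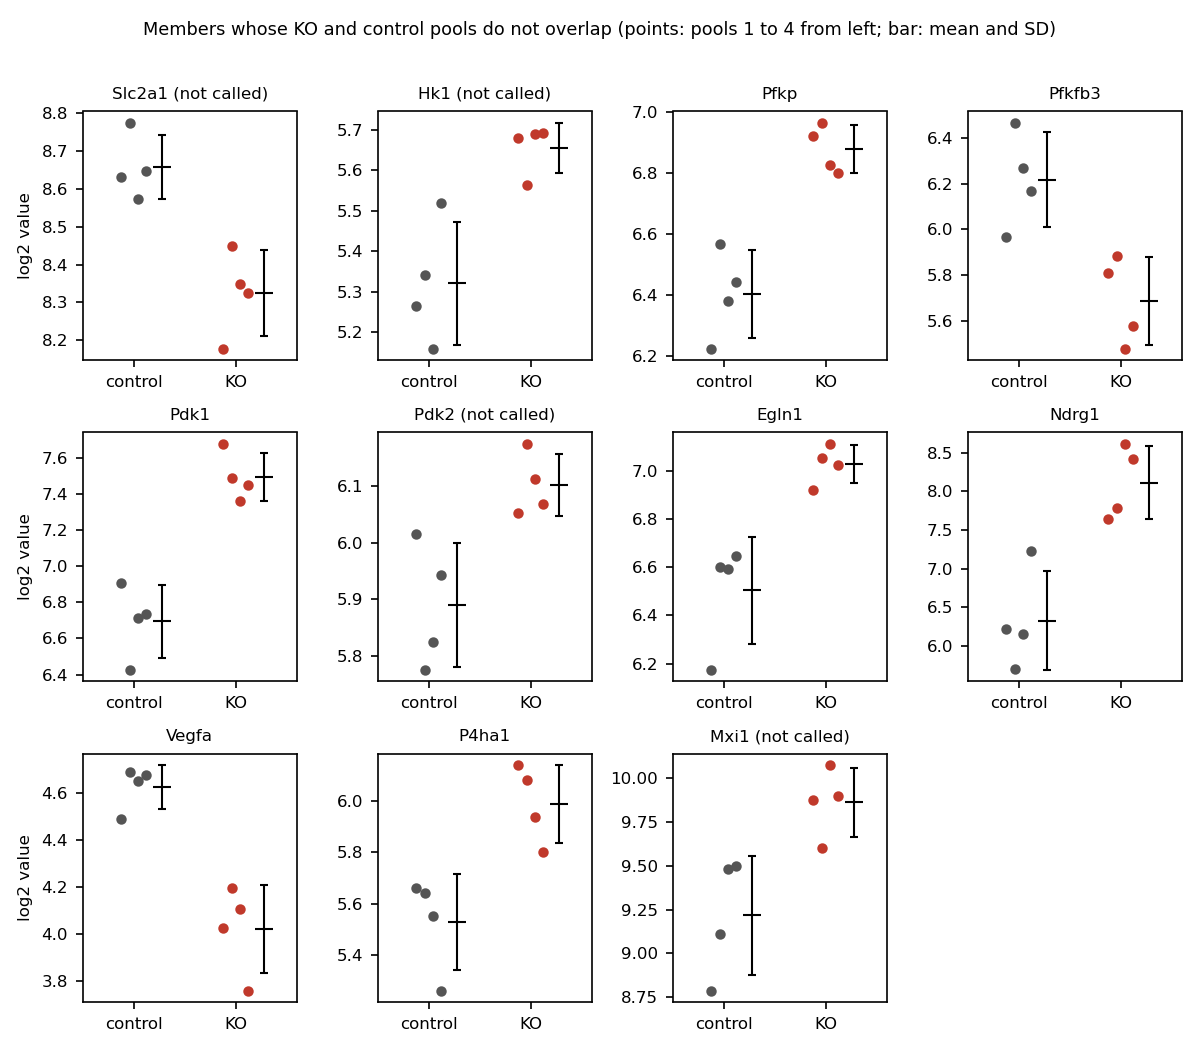
Log2 signal (vertical axis) of the 11 genes whose 4 KO and 4 control pools did not overlap; every point is 1 pool, in order from pool 1 to pool 4 from the left, and bars give the mean and SD. For Ndrg1 the KO pools lie between 7.64 and 8.62 and the control pools between 5.71 and 7.23, and for Pdk1 between 7.36 and 7.68 against 6.43 and 6.91.

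Among the enzymes that sense oxygen, Egln1 encodes the main HIF prolyl hydroxylase and is itself a HIF target. Egln1 was at 6.92, 7.05, 7.11 and 7.03 in KO pools 1 to 4 and at 6.17, 6.60, 6.59 and 6.65 in control pools 1 to 4, so the groups did not overlap and control pool 1 stood lowest. The rise was 0.52 (SE 0.11, 1.44-fold, limma adjusted p = 0.0276). Egln1 lost its call with the T cell marker covariate (0.63, adjusted p = 0.0857), without KO pools 1 and 2 (0.56, adjusted p = 0.127) and when KO pool 2, 3 or 4 or control pool 3 was left out (adjusted p up to 0.0754). Egln2, a related hydroxylase, was at 7.23, 7.55, 7.66 and 7.43 in KO and at 7.66, 7.88, 7.91 and 7.96 in control. It differed by -0.38 (SE 0.11, adjusted p = 0.0926), and KO pool 3 lay just above the lowest control pool. Egln3, dim on these arrays, differed by 0.25 (adjusted p = 0.578), and Vhl, the substrate receptor of the ligase that degrades HIF alpha, by -0.14 (adjusted p = 0.576).

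The HIF alpha transcripts themselves were not called. Hif1a was at 8.49, 8.51, 8.38 and 8.53 in KO and at 8.58, 8.71, 8.51 and 8.45 in control, a difference of -0.08 (95% interval -0.27 to 0.10, adjusted p = 0.723). A dimmer second Hif1a probe set differed by -0.57 (adjusted p = 0.223 with every probe set tested). Epas1, which encodes HIF-2 alpha, was at 3.54, 4.07, 3.54 and 3.68 in KO and at 3.76, 3.75, 3.58 and 3.44 in control. HIF is controlled largely through the stability of its protein, which these arrays do not measure. Of 13 measured HIF partners and cofactors (16 listed), such as Arnt and Ep300, none was called (limma, median 0.003, 1 at an unadjusted p under 0.05).

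Phosphofructokinase commits sugar to glycolysis, and Pfkp encodes its platelet-type isoform. Pfkp was at 6.92, 6.96, 6.83 and 6.80 in KO pools 1 to 4 and at 6.22, 6.57, 6.38 and 6.44 in control pools 1 to 4, with no overlap. Its rise of 0.48 (SE 0.09, 1.39-fold, limma adjusted p = 0.0171) was not called without KO pool 1, without KO pool 2 or without control pool 3 (adjusted p = 0.0503, 0.0577 and 0.0529). With the T cell marker covariate it was 0.40 (adjusted p = 0.197), and without KO pools 1 and 2 it was 0.41 (adjusted p = 0.167). The liver isoform Pfkl differed by 0.23 (adjusted p = 0.270). The muscle isoform Pfkm was at 3.57, 3.25, 2.82 and 3.09 in KO and at 3.46, 3.48, 3.54 and 2.85 in control, with wide overlap. Aldoc, an aldolase, and Tpi1, triose phosphate isomerase, differed by -0.09 and -0.14 (adjusted p = 0.828 and 0.533).

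Pfkfb3 makes fructose 2,6-bisphosphate, the activator of phosphofructokinase, and moved opposite to Pfkp. It was at 5.81, 5.88, 5.48 and 5.58 in KO pools 1 to 4 and at 5.97, 6.47, 6.27 and 6.17 in control pools 1 to 4, and the nearest pools were 5.88 in KO and 5.97 in control. It fell by 0.53 (SE 0.13, 1.44-fold, limma adjusted p = 0.0437). With 1 pool left out at a time it stayed called only when that pool was control pool 1 (adjusted p up to 0.117 otherwise). The difference was -0.74 with the T cell marker covariate (adjusted p = 0.0454) and -0.69 without KO pools 1 and 2 (adjusted p = 0.0577). Pfkfb4, a second such enzyme, was at 5.08, 4.71, 5.18 and 5.30 in KO and at 4.99, 5.14, 5.30 and 4.72 in control, with a difference of 0.03 (adjusted p = 0.961).

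At the entry of the pathway, Slc2a1 encodes the glucose transporter GLUT1, a HIF target in many cells. Slc2a1 was at 8.18, 8.45, 8.35 and 8.32 in KO pools 1 to 4 and at 8.63, 8.78, 8.57 and 8.65 in control pools 1 to 4. All KO pools lay below all control pools, yet the difference of -0.33 (SE 0.09) was not called (limma adjusted p = 0.0670). A dimmer second Slc2a1 probe set differed by -0.15 (SE 0.13) with overlap (adjusted p = 0.684 with every probe set tested). Slc2a3, encoding GLUT3, was at 4.70, 4.78, 4.82 and 4.54 in KO and at 4.58, 4.77, 4.62 and 4.44 in control (difference 0.11, adjusted p = 0.679).

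Hexokinases trap glucose in the cell as glucose 6-phosphate. Hk1 was at 5.68, 5.56, 5.69 and 5.69 in KO pools 1 to 4 and at 5.26, 5.34, 5.16 and 5.52 in control pools 1 to 4, again without overlap and again not called (0.33, SE 0.09, adjusted p = 0.0843). Hk2, the hypoxia-inducible isoform, differed by 0.13 (adjusted p = 0.610). Hk3, expressed mainly in myeloid cells, was at 3.0, 3.09, 3.46 and 3.04 in KO and at 3.22, 3.24, 3.31 and 3.23 in control (difference -0.10, adjusted p = 0.730). The transporter and hexokinase genes therefore gave 0 calls of 5 in limma, with Slc2a1 and Hk1 at an unadjusted p under 0.05. Over 21 alternatives, Slc2a1 was called lower in 3 and Hk1 higher in 2. Among only genes above the median level, their limma adjusted p was 0.0338 and 0.0442.

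The lower part of glycolysis, which yields ATP and pyruvate, held no called gene of 4 measured (limma, 0 at an unadjusted p under 0.05). Gapdh was at 11.03, 11.10, 10.89 and 10.76 in KO and at 10.84, 10.89, 11 and 10.82 in control. Pgam1, the phosphoglycerate mutase, was at 7.55, 7.56, 7.38 and 7.40 in KO and at 7.27, 7.36, 7.20 and 7.42 in control. Pgk1, a phosphoglycerate kinase often used as a HIF reporter gene, differed by 0.16 (95% interval -0.07 to 0.39). The intervals were -0.15 to 0.27 for Gapdh, -0.03 to 0.35 for Pgam1 and -0.09 to 0.27 for Pkm, the pyruvate kinase gene. These intervals hold 0 and do not show that the levels are equal.

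Lactate dehydrogenase interconverts pyruvate and lactate, and monocarboxylate transporters carry lactate across the membrane. None of the 4 genes was called (limma, 0 at an unadjusted p under 0.05). Ldha was at 3.66, 3.49, 3.64 and 3.63 in KO and at 3.37, 3.49, 3.55 and 3.24 in control, a difference of 0.19 (adjusted p = 0.343). Its level lay under 3.81, the median of all named genes, as did those of 7 other genes here, and RMA values that low understate differences. Slc16a3, the lactate exporter, was at 3.95, 3.84, 3.93 and 4.07 in KO and at 4.09, 3.91, 4.11 and 3.94 in control. Ldhb and Slc16a1 differed by -0.02 and 0.01.

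Among other hypoxia-inducible genes, Vegfa, the angiogenic growth factor, was lower in KO. Vegfa was at 4.03, 4.19, 4.11 and 3.76 in KO pools 1 to 4 and at 4.49, 4.69, 4.65 and 4.68 in control pools 1 to 4, with no overlap. It fell by 0.60 (SE 0.10, 1.52-fold, limma adjusted p = 0.00909) and was called with any 1 pool left out. The difference was -0.66 with the T cell marker covariate (adjusted p = 0.0650) and -0.69 without KO pools 1 and 2 (adjusted p = 0.0384). P4ha1, a collagen prolyl hydroxylase subunit, was at 6.14, 6.08, 5.94 and 5.80 in KO and at 5.66, 5.64, 5.55 and 5.26 in control. Its rise of 0.46 (SE 0.11, 1.38-fold) had an adjusted p of 0.04997, just inside the threshold, and with 1 pool left out it stayed called only without KO pool 4 (adjusted p up to 0.131 otherwise). P4ha1 was also not called with the covariate (0.26, adjusted p = 0.438) or without KO pools 1 and 2 (0.34, adjusted p = 0.322). It was called in 8 of 21 alternatives.

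Mxi1, a MYC antagonist of the MAX network, lay just outside the threshold. It was at 9.88, 9.60, 10.08 and 9.90 in KO pools 1 to 4 and at 8.78, 9.11, 9.48 and 9.50 in control pools 1 to 4, without overlap (0.65, SE 0.16, limma adjusted p = 0.0543). A second Mxi1 probe set gave 0.41 (SE 0.11), also without overlap (adjusted p = 0.118 with every probe set tested). Mxi1 was called in 7 of 21 alternatives, one of them the T cell marker covariate (0.92, adjusted p = 0.0469). Ddit4, an mTORC1 inhibitor induced by hypoxia and stress, was at 5.05, 5.56, 5.64 and 5.75 in KO and at 5.70, 6.16, 6.26 and 5.94 in control, a difference of -0.52 (adjusted p = 0.136) with KO pool 4 above the lowest control pool. Bnip3, a mitophagy receptor, and P4ha2 differed by 0.17 and 0.10 (adjusted p = 0.496 and 0.688).

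The question of whether Ndrg1 and Pdk1 rose with other HIF targets was put to wider lists. Of the genes above, 26 measured genes are listed HIF targets (31 listed): 5 were called higher and 2 lower, 19 differences were above 0 and 7 below, and the median was 0.14. Of a further 37 measured HIF targets (40 listed), 1 was called higher and 1 lower, 27 differences were above 0 and 10 below, and the median was 0.08 against 0.02 over all genes. That is 5.41% called, near the 3.59% of all genes, of which 12100 had a difference above 0 and 10080 below. Together the lists held 6 genes called higher and 3 lower of 63 (all genes: 1.49% and 2.1%), and 7 of these 9 belong to the first list. Both lists were chosen with earlier results of these data known.

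The called gene that was higher among the further targets was Gbe1, the glycogen branching enzyme. It was at 6.69, 6.63, 6.61 and 6.59 in KO pools 1 to 4 and at 5.64, 5.78, 5.77 and 5.86 in control pools 1 to 4, a rise of 0.87 (SE 0.08, limma adjusted p = 0.000174). Its spread within groups was narrow, and it was called in all 21 alternatives run, with 0.85 under the T cell marker covariate and 0.84 without KO pools 1 and 2. Adm, which encodes the vasodilator adrenomedullin, was at 6.50, 6.77, 6.63 and 6.09 in KO and at 7.37, 7.60, 7.85 and 7.50 in control. It fell by 1.09 (SE 0.15, adjusted p = 0.00260) and was called in 20 of 21 alternatives, with -1.15 under the covariate and -1.22 without KO pools 1 and 2. Textbook HIF targets were therefore called in both directions, Ndrg1, Pdk1, Egln1 and Gbe1 higher and Vegfa and Adm lower. Pgk1, Ldha, Slc2a1 and Bnip3 were not called. Of these, Ldha and Bnip3 lay under the median level of all named genes, where differences are understated. All KO pools of Slc2a1 lay below all control pools. The plot of HIF target lists shows the called genes at both ends.

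**Figure D3:**
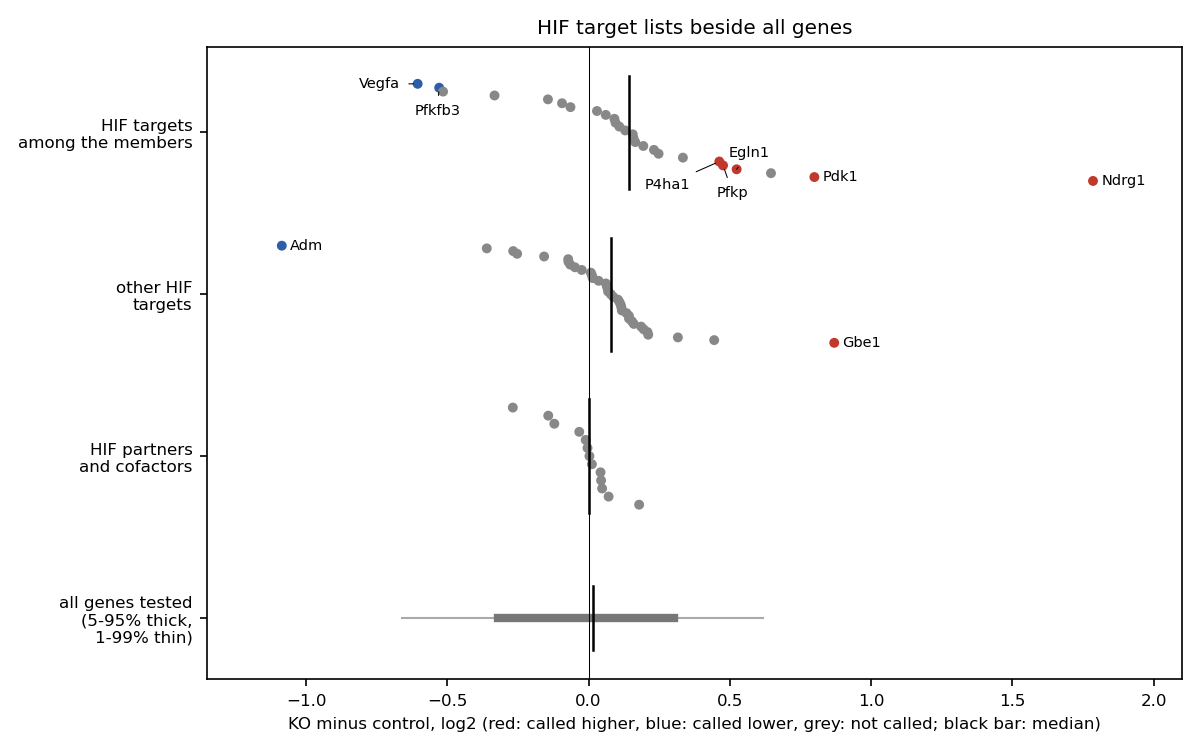
Difference between KO and control on the log2 scale (horizontal axis) for each measured gene of the HIF target and partner lists, ordered by difference within a list, with vertical black bars at list medians; the lowest line gives percentiles over all 22180 genes. Called genes lie on both sides of 0, from Adm at -1.09 to Ndrg1 at 1.79, and the list medians are 0.14, 0.08 and 0.003.

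Other enzymes of sugar metabolism were called about as often as all genes. Of 25 measured genes of further glycolytic isoforms, glucose transporters and branch point enzymes (31 listed), 0 were called higher and 1 lower, 4% against 3.59% of all genes, with a median of -0.04. That gene, Gapdhs, the germ cell form of the dehydrogenase, was at 4.59, 4.73, 5.19 and 4.53 in KO and at 5.13, 5.77, 5.38 and 5.46 in control (difference -0.68, SE 0.16, adjusted p = 0.0458). Its groups overlapped, and it was called in 10 of 21 alternatives. The Gapdhs call was lost with the T cell marker covariate (-0.53, adjusted p = 0.334) and without KO pools 1 and 2 (-0.58, adjusted p = 0.276). At an unadjusted p under 0.05 in limma stood 7 of the 25, against 3398 of all 22180 genes. Without overlap were 3 of the 25, against 10.5% of all genes: Pfkfb2 (-0.44), Adpgk (-0.29) and Taldo1 (0.29). Of 10 measured genes of pyruvate entry into mitochondria (12 listed), among them the dehydrogenase subunit Pdha1 and the pyruvate carrier subunit Mpc1, none was called (limma, 0 at an unadjusted p under 0.05).

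Ndrg1 and Pdk1 were also set against the T cell markers by pool. In the plot of both genes against T cell marker means, KO pools 3 and 4 have marker means of 4.68 and 5.19, close to or inside the control range of 4.08 to 5.05. In those pools Ndrg1 was at 8.62 and 8.42 and Pdk1 at 7.36 and 7.45, all above the control pools' highest values of 7.23 and 6.91. In KO pools 1 and 2, Ndrg1 was at 7.64 and 7.78 and Pdk1 at 7.68 and 7.49. Among the 4 KO pools, Pdk1 was thus in the same order as the T cell marker mean, and Ndrg1 was lowest in the pools with the highest means.

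**Figure D4:**
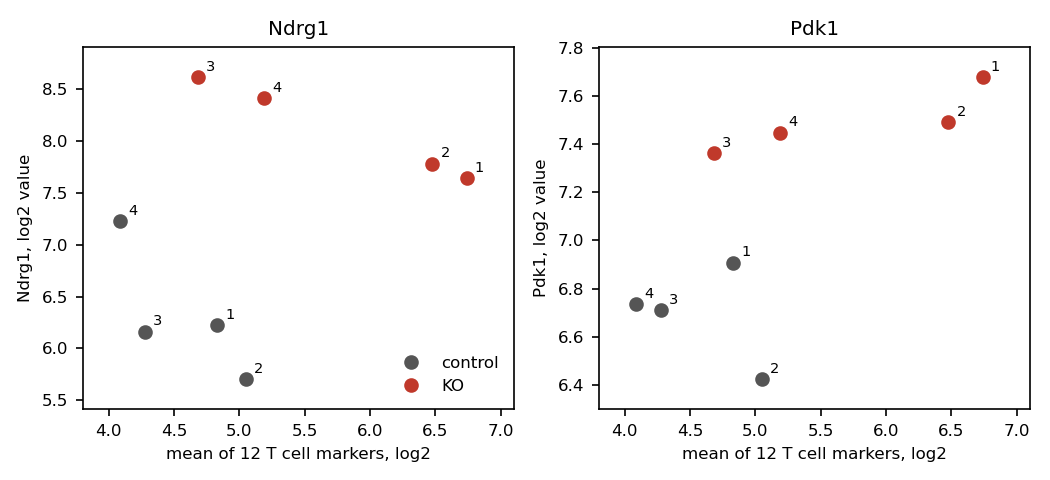
Log2 signal of Ndrg1 and of Pdk1 (vertical axes) against the mean log2 signal of 12 T cell markers (horizontal axis), 1 point per pool with its number, KO and control in different colours. KO pools 1 and 2 stand apart at marker means of 6.74 and 6.48, and KO pools 3 and 4 lie at 4.68 and 5.19.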

How the data were processed

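RNA of 4 KO and 4 control pools of sorted peritoneal B-1a cells was measured on 1 Affymetrix array each. The authors deposited log2 values of 41345 probe sets, made with RMA and R 3.2.2 per the submitters' processing notes. RMA corrects background, equalises the arrays' distributions and summarises probes, so differences are relative to the other genes of an array and are understated for dim genes. Array medians lay between 3.68 and 3.74. Precision is limited by the number of arrays, which carry no read depth. The package and annotation level were not named there.

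Of 25335 probe sets in the platform annotation, 23521 with exactly 1 symbol were named, 1814 had several, and 16010 deposited probe sets were not listed. Gene identifiers of 23328 matched the RefSeq table of GRCm38.p6, which also gave the promoter windows. The probe set with the highest mean over 8 arrays was kept per gene (1082 genes had several), which left 22180 genes. KO was compared with control by limma 3.58.1, run in R 4.3.3 (two-sided, lmFit followed by eBayes, Benjamini-Hochberg over all 22180 genes, adjusted p under 0.05). The fit was tested on simulated data.

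The genes, lists and tests were chosen with earlier results of these data known. Every gene of the list is accounted for; values per pool are given for those called or without overlap and for the largest and smallest difference of each role, and called genes of the wider lists are named. Alternatives changed the probe set, the genes tested, scaling, variance prior, array weights, threshold and replicate block, or dropped single pools. A fit with the mean of T cell markers as covariate and one that drops KO pools 1 and 2 were chosen after seeing the data.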

Additional observations from a re-analysis of the deposited data

Results flagged for a closer look

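In 74 groups of 4 pools (the measured genes and Paxip1, each in KO and control), 6 had a pool that stood apart from the other 3 by Dixon's criterion, whose critical value for 4 samples is 0.829. Chance alone sets apart about 1 in 20 groups. In KO, Hk1 in pool 2 was at 5.56 with the nearest pool at 5.68, Pfkl in pool 4 was at 5.15 with the nearest at 5.30, and Vhl in pool 4 was at 5.15 with the nearest at 4.99. In control, Hk3 in pool 3 was at 3.31 with the nearest at 3.24, Pfkm in pool 4 was at 2.85 with the nearest at 3.46, and Egln1 in pool 1 was at 6.17 with the nearest at 6.59. Of these genes only Egln1 was called, and it was called with control pool 1 left out.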

How the results depend on the processing

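Of all genes, 797 were called. The count was 303 without variance moderation, 1202 at an adjusted p under 0.1, 279 with the T cell marker covariate, 320 without KO pools 1 and 2, and 479 to 758 with each pool left out in turn. The 5 genes of glycolysis and hypoxia called higher became 3 with every probe set tested, 1 without moderation, and 2 both with the covariate and without KO pools 1 and 2. They became 7 among genes above the median level and at an adjusted p under 0.1, and 6 with the mean of probe sets, repeated quantile normalization, the intensity trend or the replicate block. With the most variable probe set or median centring they became 4, as P4ha1 lost its call. Leaving out 1 pool gave 2 to 4, with 2 when KO pool 2 or control pool 3 was left out and 3 without KO pool 1 or KO pool 3. The 2 called lower became 1 with every probe set tested, after repeated quantile normalization, with the covariate and without KO pools 1 and 2, 0 without moderation, and 4 both with an intensity trend and robust prior and at an adjusted p under 0.1. Leaving out 1 pool gave 1 to 2, with 1 except when control pool 1 was left out. Paxip1 was called in all 21 alternatives. Ndrg1 was called in all but the fit without moderation (1.79, adjusted p = 0.114; range 0.00154 to 0.114) and Pdk1 in all but the covariate fit (0.72, adjusted p = 0.0579). Genes that changed sign were not called in any of the fits concerned: with the covariate Hk3 (0.060), Gapdh (-0.055), Slc16a1 (-0.017), Epas1 (-0.091) and Egln3 (-0.072); without KO pools 1 and 2 Gapdh (-0.059), Slc16a1 (-0.064) and Epas1 (-0.022); Pgam1 with its most variable probe set (-0.0058); Pfkfb4 with array weights (-0.016). With 1 pool left out, the ranges were -0.17 to 0.013 for Aldoc, -0.076 to 0.15 for Pfkfb4, -0.092 to 0.041 for Ldhb, -0.084 to 0.077 for Slc16a1 and -0.045 to 0.13 for Epas1. The cause of these changes was not tested. The labels number the pools 1 to 4 in both groups. Same-numbered pools deviated together with correlations of 0.107, 0.0449, 0.0449 and 0.0363, and the numbers were not taken as pairs. The control pools that correlated best with KO pools 1, 2, 3 and 4 were pools 1, 2, 4 and 3. In both groups the T cell marker mean was higher in pools 1 and 2 than in pools 3 and 4. The reason for this shared order was not tested. With the replicate number as a block 666 genes were called, 579 of them shared with the fit without it, as were 6 of the 7 called genes of glycolysis and hypoxia; Pfkfb3 lost its call (adjusted p = 0.0524), and Mxi1 and Ddit4 gained one (0.0345 and 0.0425). Under the block, Ndrg1 was 1.79 and Pdk1 0.80, as without it. No scaling moved the median of all genes by over 0.1. Low signal limits the genes under the median level.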

Other observations

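Gene groups that border on glycolysis were read against the 3.59% of all genes called. Of 18 measured citric acid cycle genes (19 listed), 1 (5.56%) was called, the mitochondrial isocitrate dehydrogenase Idh2. Idh2 was at 5.71, 5.73, 5.62 and 5.89 in KO pools 1 to 4 and at 6.18, 6.25, 6.39 and 6.47 in control pools 1 to 4. It fell by 0.58 (SE 0.09, limma adjusted p = 0.00646), without overlap. The call was lost with the T cell marker covariate (-0.53, adjusted p = 0.1005) and without KO pools 1 and 2 (-0.56, adjusted p = 0.0777).

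Of 15 mTORC1 regulators, 1 (6.67%) was called, Sesn1, a stress-induced inhibitor of mTORC1. It was at 8.12, 8.13, 8.13 and 8.14 in KO pools 1 to 4 and at 7.27, 7.38, 7.48 and 7.32 in control pools 1 to 4, a rise of 0.77 (SE 0.08, limma adjusted p = 0.000353). The KO pools were nearly identical, and the call held in all 21 alternatives run. Of 16 measured stress genes that the factor ATF4 controls, 0 were called in limma. An unadjusted p under 0.05 was found for 3 of them, against 3398 of all 22180 genes. Of 14 measured genes of MYC and proliferation (15 listed), 0 were called and 0 had an unadjusted p under 0.05. The median differences of the citric acid cycle, mTORC1, ATF4 and MYC lists were 0.04, 0.04, -0.01 and -0.01, against 0.02 over all genes. Other cell markers gave 0 calls of 11 for mast cells and granulocytes (limma, 1 at an unadjusted p under 0.05). For erythroid cells the count was 0 of 1 measured (0 at that p). Of 6 plasma cell markers 1 was called, Jchain, which was higher in KO by 1.49 (SE 0.14, limma adjusted p = 0.000197). Xbp1 and Irf4 went the other way, by -0.35 and -0.34, without overlap, and were not called (limma adjusted p = 0.0961 and 0.0881). The mean of the 6 ran from 5.28 to 5.37 in KO and from 5.07 to 5.18 in control, with 4 differences above 0 and 2 below. That higher mean rests largely on Jchain.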
